A study of Mus musculus with 24 samples.

Results

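The comparison described here sets 3T9 fibroblasts, an immortalised mouse line, infected with BP-MycER-RA and kept in OHT for 4 h against 3T9 fibroblasts infected with an empty vector (EV) and kept in OHT for 4 h. It uses 3 RA libraries and 3 EV libraries of the 24 RNA-seq libraries of the series, and 12268 of 21671 genes, those with an RPKM (reads scaled by gene length and by library total) of at least 1 in at least 3 of the 24 libraries. The remaining libraries, also 3 a group and all from cells in OHT, carry RA or EV for 8 h, or the WT and HEA forms of MycER for 4 h or 8 h. The sources used here do not give what drives the construct, whether infected cells were a pool or a clone, or which residues HEA and RA change. The series asks what non-specific and sequence-specific contacts of Myc with DNA each contribute to gene regulation.

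Myc is a transcription factor that pairs with Max and binds DNA, with a preference for the E-box CACGTG. It is best known for raising genes of ribosome assembly, RNA polymerase I and III, nucleotide synthesis and growth, and for lowering genes of growth arrest. MycER is a fusion of Myc with the part of the oestrogen receptor that binds hormone, and it stays inactive until OHT (4-hydroxytamoxifen) binds it. EV cells receive the same OHT without the fusion, so an effect of OHT alone is present on both sides of the comparison.

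The 6 libraries held 10.2 to 12.8 M reads, as recovered from the RPKM values. EV replicate 2 stood apart from the other EV libraries at 4 h: its genes scattered around the mean of the other two with an SD of 0.35 on the log2 scale, against 0.24 and 0.26 for EV replicates 3 and 1 and 0.23 to 0.26 for the RA libraries. Calls are therefore also given without EV replicate 2. Summed RPKM of fibroblast markers was 805 to 887 in RA and 822 to 922 in EV, with Vim and Col1a1 the highest. Markers of other cell types were low and their sums overlapped between the groups, at 1.49 to 2.28 in RA and 1.57 to 2.07 in EV for epithelial cells, 3.52 to 4.38 in RA and 2.97 to 4.50 in EV for endothelial cells, 9.06 to 11.4 in RA and 9.85 to 11.4 in EV for muscle, and 4.20 to 6.54 in RA and 2.74 to 5.03 in EV for adipocytes. Epcam, Krt18 and Esrp1 (epithelial), Myod1, Tnnt1, Myf5 and Pax7 (muscle) and Adipoq, Cidec and Retn (adipocyte) were at 0 in all 6 libraries. In bulk libraries, fewer cells with a transcript and less of it per cell cannot be told apart.

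Esr1 encodes the oestrogen receptor, part of which the construct carries. It was at 11.7, 11.1 and 12.3 RPKM in RA cells, against 0.385, 0.293 and 0.153 RPKM in EV cells. All RA libraries lay far above all EV libraries, as the labels have it. The log2 fold change was 3.98 ± 0.14 (SE, n = 3 each, limma adjusted p = 9.12e-14), and 4.00 ± 0.16 without EV replicate 2. Esr1 did not pass the test between RA and the other MycER forms at 4 h, with differences of -0.03 ± 0.14 (adjusted p = 0.904) from WT and 0.02 ± 0.14 (adjusted p = 0.911) from HEA.

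Reads assigned to Myc, from the cells' own gene and possibly from the construct, were at 57.6, 58.3 and 65.1 RPKM in RA cells, against 53.2, 62.4 and 56.0 RPKM in EV cells. The groups overlapped, and the log2 fold change was 0.08 ± 0.17 (limma adjusted p = 0.827, 95% interval -0.27 to 0.42). Myc was higher in RA than in WT cells by 0.59 ± 0.17 (limma adjusted p = 0.00937). WT cells were lower than EV cells at 4 h, at -0.51 ± 0.17 (limma adjusted p = 0.0286). The difference of RA from HEA cells, 0.13 ± 0.17, did not pass (limma adjusted p = 0.547).

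After 4 h, 317 genes were higher and 335 were lower in RA cells than in EV cells, which is 5.31% of the genes tested (limma, Benjamini-Hochberg adjusted p under 0.05). The changes were small: the median size among called genes was 0.48 on the log2 scale, and 13 genes rose and 13 fell by 2-fold or more. Over all genes the median log2 fold change was 0.02, and the 95% interval lay within ±1 for 94.4% of them. Without EV replicate 2, 65 genes were higher (0.53%) and 93 lower (0.758%), together 1.29% of those tested, and 156 of the 158 were among the earlier calls with the same direction. RA and EV libraries did not overlap for 645 of the 652 called genes, and for 25.2% of all genes tested. EV replicate 2 was the EV library farthest from the RA mean in 65.6% of called genes and in 58.4% of all genes. Its part in the calls that depend on it was not tested further. When the 6 libraries were fitted alone, with 4 residual degrees of freedom in place of 16, 3 genes passed and 2140 had an unadjusted p under 0.05.

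Ccl7, Rasgrp3 and Prr5l were among the 15 largest rises that the rule names. The rule takes only genes whose RA and EV libraries do not overlap, which held for 25.2% of all genes tested. Ccl7, a chemokine that attracts monocytes, was at 30.6, 33.4 and 23.7 RPKM in RA cells, against 13.6, 8.93 and 9.71 RPKM in EV cells. All RA libraries lay above all EV libraries, with a log2 fold change of 1.41 ± 0.17 (limma adjusted p = 0.000237) and 1.30 ± 0.19 without EV replicate 2 (adjusted p = 0.00290). Rasgrp3, an exchange factor that activates Ras, was at 16.5, 15 and 16.6 RPKM in RA cells, against 9.28, 6.47 and 8.44 RPKM in EV cells. The RA libraries were close together and clear of EV, at 0.96 ± 0.12 (limma adjusted p = 0.000237; 0.82 ± 0.11 without EV replicate 2). Prr5l, a protein associated with mTORC2, was at 4.06, 3.51 and 4.22 RPKM in RA cells, against 1.76, 1.83 and 1.74 RPKM in EV cells. Here EV replicate 2 lay with the other EV libraries, and the log2 fold change was 0.96 ± 0.14 (limma adjusted p = 0.00114; 0.97 ± 0.16 without that library).

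Dhrs3, which reduces retinaldehyde, had the largest log2 fold change after Esr1 among the genes named by the selection rule, at 1.44 ± 0.33, but also a wide spread. It was at 5.29, 3.05 and 1.85 RPKM in RA cells, against 1.60, 0.401 and 0.768 RPKM in EV cells. The lowest RA library lay just above the highest EV library, and the call was lost without EV replicate 2 (1.16 ± 0.35, limma adjusted p = 0.103). Cemip, which takes part in the breakdown of hyaluronan, was at 37.5, 30.2 and 27.9 RPKM in RA cells, against 17.3, 16.3 and 14.5 RPKM in EV cells. Its log2 fold change was as large without EV replicate 2 (0.98 ± 0.26, against 0.96 ± 0.23 with it), although its adjusted p moved to 0.0686, against 0.0193 with it. Gria1, a glutamate receptor subunit, was at 3.02, 1.69 and 1.48 RPKM in RA cells, against 0.641, 0.491 and 0.762 RPKM in EV cells (1.14 ± 0.22). It kept its call without EV replicate 2, at 1.05 ± 0.24.

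The other leading rises were U90926 (1.37), the protease inhibitor Serpina3g (1.15), Veph1 (1.08), Fam26e (1.01), the organic anion transporter Slco1a6 (0.96), the phospholipid scramblase Plscr2 (0.95), Mum1l1 (0.95) and the matrix protein Sned1 (0.94), all as log2 fold changes. Serpina3g belongs to a family of near-identical copies that can share reads. Of the 15 leading rises, 8 passed without EV replicate 2 and in each other fit that left out 1 of the 6 libraries: Esr1, Ccl7, Gria1, Veph1, Rasgrp3, Slco1a6, Prr5l and Plscr2.

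Ctxn1 and Fgf2 had the largest falls among the 15 that the rule names, which again requires groups that do not overlap. Ctxn1, a small membrane protein of the cortexin family, was at 4.27, 2.31 and 4.12 RPKM in RA cells, against 10.0, 12.7 and 10.2 RPKM in EV cells. Every RA library was less than the lowest EV library, with a log2 fold change of -1.53 ± 0.18 (limma adjusted p = 0.000237; -1.43 ± 0.20 without EV replicate 2). Fgf2, a fibroblast growth factor, was at 1.32, 1.86 and 2.25 RPKM in RA cells, against 4.83, 6.70 and 5.45 RPKM in EV cells. Its log2 fold change was -1.43 ± 0.24 (limma adjusted p = 0.00252; -1.31 ± 0.27 without EV replicate 2). Fgf2 shares up to 585 bases of exon with Nudt6 on the opposite strand in the GENCODE M21 annotation. The sources do not state whether counting used the strand, so reads of the pair cannot be told apart.

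Dyrk3, a kinase known for dissolving stress granules, was at 2.26, 2.77 and 3.91 RPKM in RA cells, against 7.36, 8.92 and 8.04 RPKM in EV cells (-1.33 ± 0.20, limma adjusted p = 0.00114; -1.26 ± 0.23 without EV replicate 2). Adamts7, a secreted metalloprotease, was at 2.31, 2.51 and 3.53 RPKM in RA cells, against 7.31, 8.33 and 6.43 RPKM in EV cells (-1.27 ± 0.20, limma adjusted p = 0.00133; -1.18 ± 0.22 without EV replicate 2). Sapcd2, a protein of spindle orientation, was at 8.28, 9.61 and 9.62 RPKM in RA cells, against 19.2, 18.3 and 15 RPKM in EV cells (-0.89 ± 0.13, limma adjusted p = 0.00114; -0.86 ± 0.15 without EV replicate 2). EV replicate 2 was the highest EV library for Dyrk3 and Adamts7 and lay between the others for Sapcd2, and the 3 falls held without it.

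Further falls were in Nat8l (-1.27), which makes N-acetylaspartate, the acyl-CoA synthetase Acsbg1 (-1.13), the death receptor Tnfrsf21 (-1.07), the integrin subunit Itgb3 (-1.04), Ccbe1 (-1.03), the protease Pcsk4 (-0.98), Ankrd13b (-0.96), the troponin Tnnt2 (-0.94), Stac (-0.92) and Ccdc85c (-0.90). Of the 15 leading falls, 10 passed without EV replicate 2 and in each other fit that left out 1 library. Acsbg1, Ccbe1, Ankrd13b, Tnnt2 and Ccdc85c did not, with log2 fold changes between -0.95 and -0.67 there. Exons of 7 of the 30 leading genes overlap those of another gene by at least 50 bases in the annotation. Besides Fgf2 these include Sned1 with Mterf4 and Adamts7 with Tbc1d2b, each on opposite strands. Among all 100 named genes there are 25 such cases, Cd3eap with Ercc1, Ddb2 with Acp2 and Txnip with Gm15441 among those named later.

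**Figure D1:**
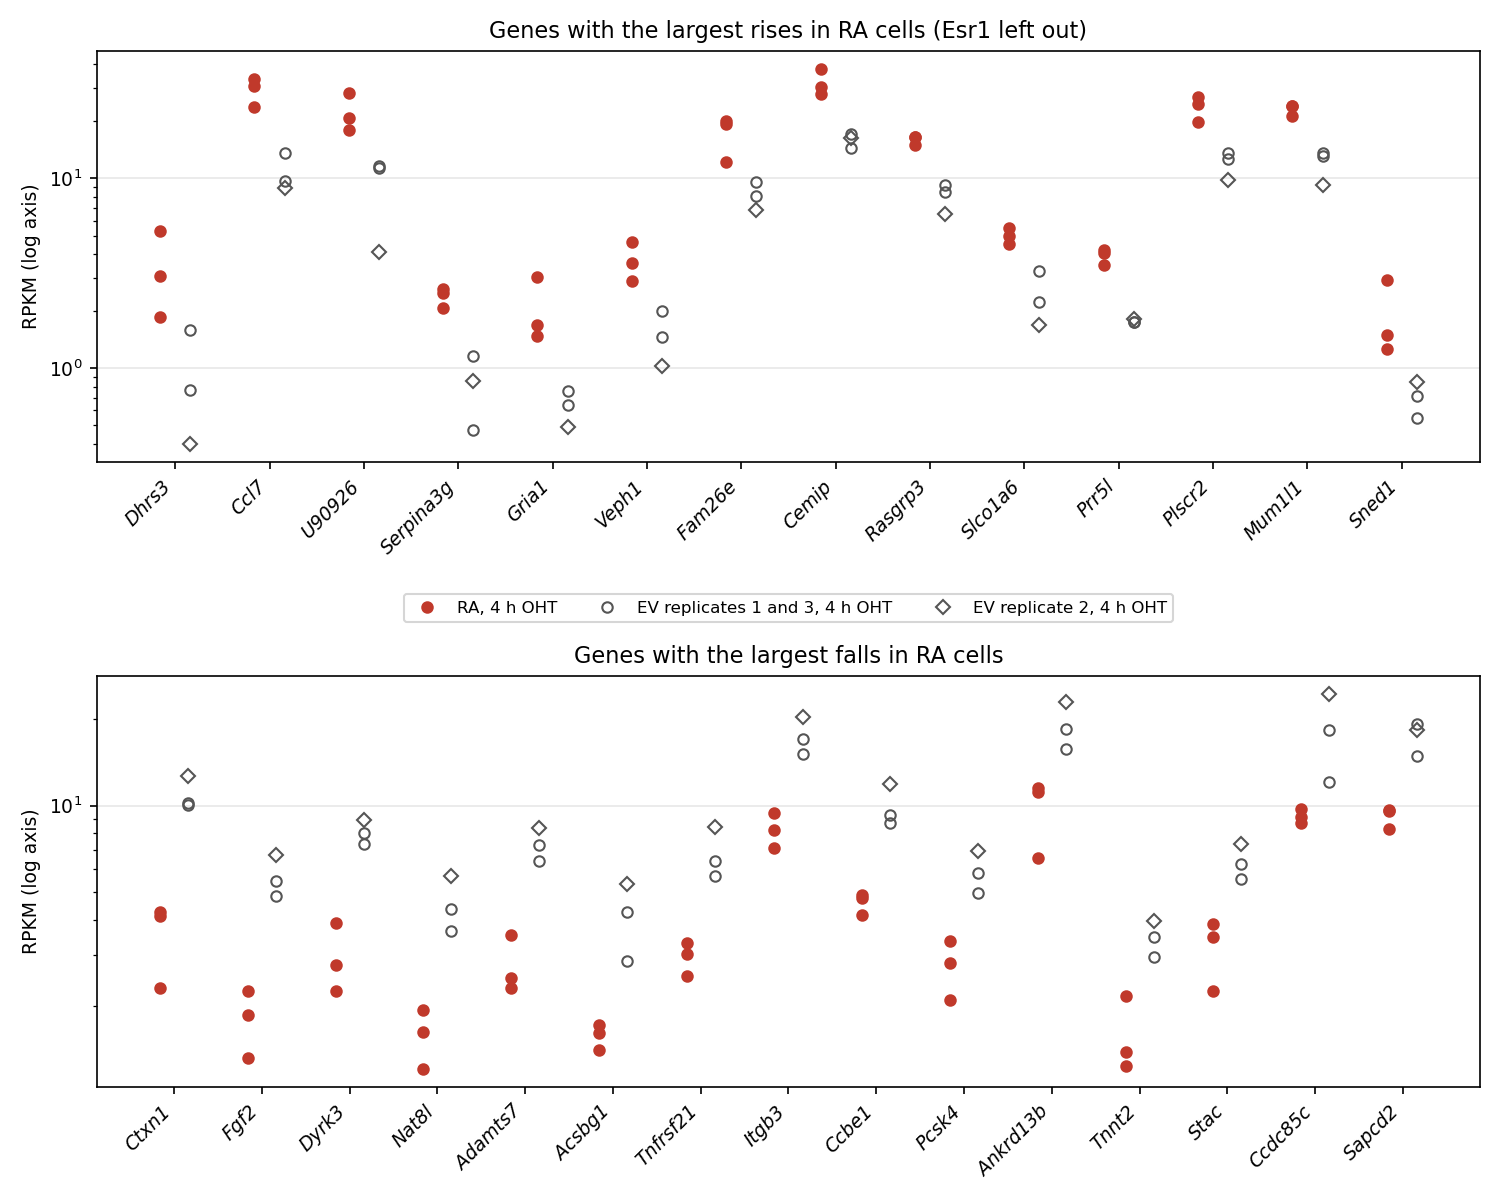
RPKM (log axis) of each RA library (filled, left) and EV library (open, right; diamond, EV replicate 2) at 4 h for the leading rises without Esr1 (top) and the leading falls (bottom). RA and EV libraries did not overlap in these genes, as the selection required, and EV replicate 2 was often the EV library farthest from RA, for example in U90926, at 4.12 RPKM against 11.3 and 11.7.

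The cells kept in OHT for 8 h gave the same contrast in 6 libraries that share none with 4 h. There, 183 genes were higher and 158 lower in RA cells than in EV cells (2.78%). Of the 652 genes called at 4 h, 650 had the same sign at 8 h, beside 66.4% of all genes. Cyb5d2 and Pdlim5 were the exceptions. The number called at both times was 201, all in the same direction, which is 30.8% of the 4 h calls and 58.9% of the 8 h calls. With EV replicate 2 left out at 4 h, all 158 genes called had the same sign at 8 h, and 105 of them (66.5%) were called there.

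Sizes were smaller at 8 h than at 4 h in the genes chosen at 4 h: the median log2 fold change of the higher calls was 0.37 at 8 h and 0.51 at 4 h, and that of the lower calls -0.30 at 8 h and -0.44 at 4 h. Genes chosen for a large value at 4 h lean to a smaller one in other libraries, so these medians are a description. The test of the difference between the times called 0 genes (limma), with 256 genes (2.09%) at an unadjusted p under 0.05, and also 0 without EV replicate 2, with 80. Of the leading genes, 13 of 15 rises and 8 of 15 falls were called at 8 h, beside 1.49% and 1.29% of all genes called higher and lower there.

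Gria1 averaged 1.75 ± 0.77 RPKM in RA cells and 0.337 ± 0.11 RPKM in EV cells at 8 h (SD, n = 3 each), a log2 fold change of 1.38 ± 0.22 (limma adjusted p = 0.00221). Cemip averaged 31.0 ± 3.9 RPKM in RA cells and 12.5 ± 1.2 RPKM in EV cells at 8 h, a change of 1.27 ± 0.23 (limma adjusted p = 0.00527), beside 0.96 at 4 h. Dyrk3 averaged 4.41 ± 1.4 RPKM in RA cells and 11.3 ± 0.90 RPKM in EV cells at 8 h, a change of -1.31 ± 0.20 (limma adjusted p = 0.00208). Fgf2 averaged 3.16 ± 0.74 RPKM in RA cells and 4.86 ± 0.55 RPKM in EV cells at 8 h, and its difference of -0.56 ± 0.24 did not pass there (limma adjusted p = 0.214). Ccdc85c, called at 4 h, was at -0.10 at 8 h (limma adjusted p = 0.879).

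**Figure D2:**
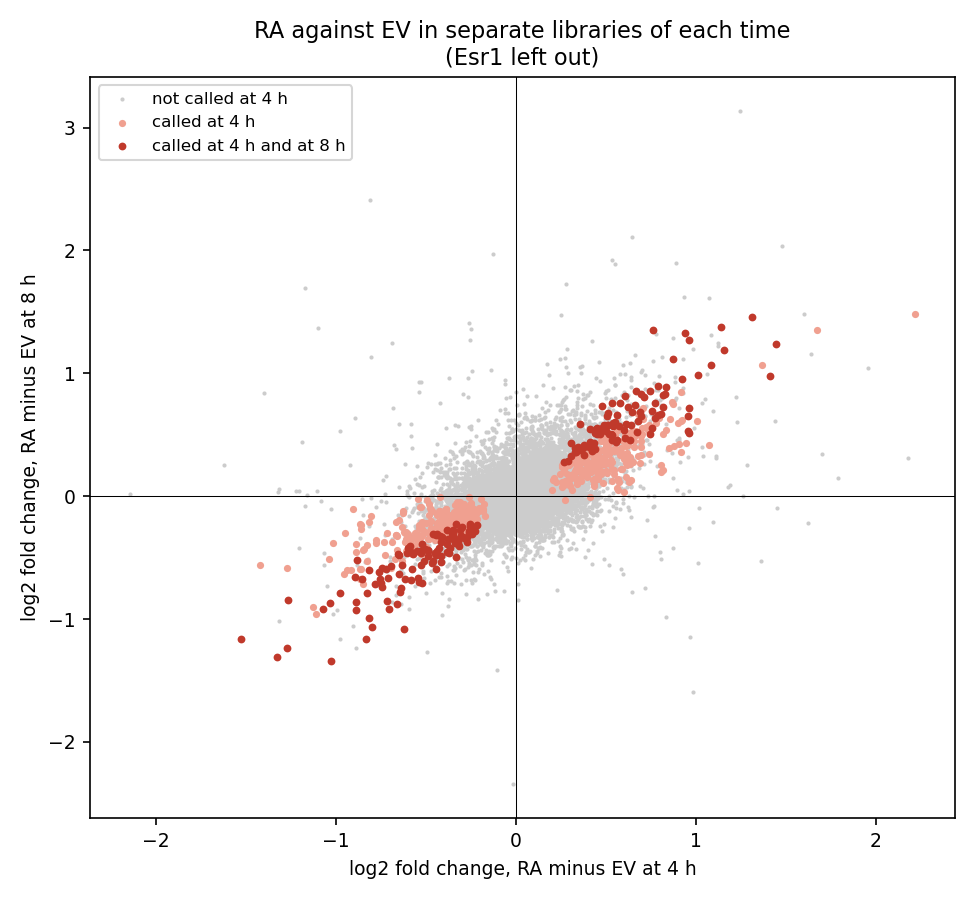
Log2 fold change of RA minus EV at 4 h (x axis) and at 8 h (y axis) for each tested gene without Esr1, on the scale of log2(RPKM + 0.5). Genes called at 4 h have the same sign at both times with 2 exceptions, and 201 were called at both times.

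Genes of growth that Myc is known to raise leaned lower in RA cells than in EV cells. Of the 59 ribosome assembly genes tested, 0 rose and 8 fell, beside 2.58% of all genes higher and 2.73% lower, and 56 were below zero, beside 45.2% of all genes. Their median log2 fold change was -0.18, beside 0.02 for all genes. Without EV replicate 2 it was -0.14, 54 were below zero and 2 fell, beside 0.758% of all genes lower. Ppan, which acts in the assembly of the large ribosomal subunit, was at 28.5, 27.8 and 29.0 RPKM in RA cells, against 37.4, 39.0 and 35.2 RPKM in EV cells. The groups were clear of each other, at -0.38 ± 0.06 (limma adjusted p = 0.00232), and the call held without EV replicate 2 (-0.35 ± 0.07, adjusted p = 0.0209). Rrp1b, a nucleolar protein of ribosomal RNA processing, was at 27.4, 27.0 and 24.8 RPKM in RA cells, against 31.7, 35.7 and 32.2 RPKM in EV cells. It was the other member to keep its call, at -0.32 ± 0.06 (limma adjusted p = 0.00483; -0.27 ± 0.06 without EV replicate 2, adjusted p = 0.0389).

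The other 6 that fell were Rrs1 (-0.46), Nle1 (-0.42), Nolc1 (-0.27), Bms1 (-0.26), Rrp9 (-0.25) and Nop56 (-0.18), and none of these passed without EV replicate 2 (limma adjusted p between 0.110 and 0.288). At 8 h, 1 member of the list passed, Ppan at -0.27 (limma adjusted p = 0.0213), beside 1.29% of all genes lower. The list's median at 8 h was -0.13 with 54 members below zero. Reads of Ppan and Nop56 include snoRNA positions that lie within their exons in the annotation.

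Among 28 genes of RNA polymerase I and III, 1 rose and 6 fell, beside 2.58% of all genes higher and 2.73% lower. Polr1e, a polymerase I subunit, was at 12.2, 12.7 and 13.2 RPKM in RA cells, against 16.3, 17.7 and 16 RPKM in EV cells. It fell by 0.38 ± 0.08 on the log2 scale (limma adjusted p = 0.00773), with an adjusted p of 0.0553 without EV replicate 2. The polymerase I genes Cd3eap (-0.38), Ubtf (-0.31) and Polr1b (-0.28) and the polymerase III subunits Polr3e (-0.32) and Polr3d (-0.31) also fell, by log2 fold change. Ttf1, a termination factor of polymerase I, rose by 0.26 ± 0.07 (limma adjusted p = 0.0286). The list's median was -0.06. Without EV replicate 2, 0 of its members passed, beside 0.53% of all genes higher and 0.758% lower. Each of the 7 kept its sign there, with a limma adjusted p between 0.0539 and 0.212. At 8 h, 2 fell, beside 1.29% of all genes lower.

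Of 50 general Myc targets, 0 rose and 14 fell, beside 2.58% of all genes higher and 2.73% lower. There were 44 below zero, beside 45.2% of all genes, and the median was -0.16. Several of them stand in the lists above (Nop56, Rrs1, Nolc1, Polr1b and Polr3d). Tfap4, an E-box factor and known Myc target, had the largest fall of the 14, at 10.4, 6.36 and 9.51 RPKM in RA cells, against 12.4, 15.5 and 15.3 RPKM in EV cells. The log2 fold change was -0.71 ± 0.15 (limma adjusted p = 0.0112), and -0.65 ± 0.17 without EV replicate 2 (adjusted p = 0.0645). The folate carrier Slc19a1 (-0.35), Rcc1 (-0.36), C1qbp (-0.34), the lactate carrier Slc16a1 (-0.23), Cdc25a (-0.22), Mat2a (-0.22) and Fkbp4 (-0.21) fell too, by log2 fold change. Hnrnpa1 (-0.41) has many processed copies in the genome and low RPKM here, so its value is uncertain. Without EV replicate 2, 0 of the 50 passed by limma, beside 0.53% of all genes higher and 0.758% lower. The median there was -0.14 and 45 were below zero. At 8 h, 3 fell, beside 1.29% of all genes lower, and the median was -0.12.

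The E-box sites below are all those found in promoters of the growth genes that fell in RA cells (ribosome assembly, RNA polymerase I and III, general Myc targets, and nucleotide and one-carbon metabolism). Of these 24 genes, 4 held the motif, 17 did not, among them Ppan and Rrp1b, and 3 had no listed window. The window of 250 bases before to 50 bases after the gene start (RefSeq, GRCm38.p6, first window listed for a gene) was searched for CACGTG, which reads the same on both strands. A match is a description of the letters, not of binding. Capitals mark the motif, each sequence runs 5′ to 3′ on the gene's strand, and the sites lie at chr11:82908355-82908384 (minus strand, Nle1), chr7:19359684-19359713 and chr7:19359446-19359475 (minus strand, Cd3eap), chr7:120917771-120917800 (plus strand, Polr3e) and chr3:104638452-104638481 (plus strand, Slc16a1).
Nle1: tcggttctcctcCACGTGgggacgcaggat
Cd3eap, first: gttggaagaaacCACGTGagcaaagttgtc
Cd3eap, second: accccttggatcCACGTGgtgggcagcgtt
Polr3e: ccccgctcccccCACGTGtccggcggagtt
Slc16a1: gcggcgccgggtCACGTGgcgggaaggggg

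Across all called genes with a listed window, the motif was in 24 of 227 higher genes (10.6%) and 26 of 239 lower genes (10.9%), beside 942 of 9032 tested genes (10.4%). It was in 7.15% of all windows of this length. The shares were 25.5% for ribosome assembly, 21.7% for RNA polymerase I and III and 31.0% for general Myc targets. With EV replicate 2 left out it was in 5 of 43 higher genes (11.6%) and 7 of 66 lower genes (10.6%). In either direction, genes called in RA cells held the motif about as often as tested genes in general.

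The remaining growth and division lists held few calls. Among 33 genes of nucleotide and one-carbon metabolism, 0 rose and 2 fell (6.06% called, beside 5.31% of all genes). They were Slc19a1, given above, and Impdh1 (-0.53 ± 0.13, limma adjusted p = 0.0270), an enzyme of guanine nucleotide synthesis. In glycolysis 3 of 23 fell (13%) and none rose, beside 2.58% of all genes higher and 2.73% lower. They were Hk2 (-0.42), Eno1 (-0.41, a gene with processed copies) and Slc16a1. In both lists 0 genes passed without EV replicate 2 by limma (adjusted p between 0.0764 and 0.203 for the genes named). Among all genes 1.29% passed there. The 50 ribosomal protein genes gave 0 calls by limma, with a median of -0.03 (0.02 without EV replicate 2), and its smallest p was that of Rps9 at -0.14 ± 0.05 (adjusted p = 0.0740). The 40 genes of G1/S and replication gave 0 calls (E2f2 at -0.52 ± 0.17, limma adjusted p = 0.0736), and so did the 35 of mitosis (Kif23 at -0.20 ± 0.06, limma adjusted p = 0.0698).

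In the Myc, Max and Mxd network, 0 of 20 genes passed by limma, beside 5.31% of all genes. Mxi1, a Max partner that opposes Myc, was at 6.04, 5.88 and 6.97 RPKM in RA cells, against 8.58, 7.28 and 9.59 RPKM in EV cells. The groups did not overlap. Its log2 fold change of -0.40 ± 0.12 was just outside the threshold (limma adjusted p = 0.0501), and just inside it without EV replicate 2 (-0.50 ± 0.12, adjusted p = 0.0492).

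Genes of interferon response and inflammation leaned higher in RA cells. Of 22 tested, 6 rose and 0 fell, beside 2.58% of all genes higher and 2.73% lower. The median was 0.15, and 17 were above zero, beside 54.8% of all genes. Besides Ccl7, Ddx58, the sensor of viral RNA known as RIG-I, was at 9.06, 8.85 and 7.81 RPKM in RA cells, against 5.81, 4.38 and 4.64 RPKM in EV cells. It rose by 0.74 ± 0.11 (limma adjusted p = 0.00114; 0.67 ± 0.12 without EV replicate 2). Ccl7 and Ddx58 also passed without EV replicate 2 and again at 8 h, where Ddx58 was at 0.51 by log2 fold change.

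The chemokines Ccl2 (0.59), Cxcl1 (0.58) and Cxcl12 (0.35) rose with all libraries and did not pass without EV replicate 2 or at 8 h. Ccl2 was at 74.3, 92.0 and 78.8 RPKM in RA cells, against 61.3, 43.3 and 58.9 RPKM in EV cells, so EV replicate 2 was the lowest EV library. Summed macrophage markers were at 17.9 to 22.5 RPKM in RA cells and 17.9 to 22.8 RPKM in EV cells, mostly Cd68 and Cd14, with Emr1 and Tyrobp at 0 in all 6 libraries.

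The growth arrest list, many of whose members Myc is known to lower, gave 1 rise and 3 falls among 32 genes. Of all genes 2.58% were higher and 2.73% lower. Txnip, an inhibitor of thioredoxin and glucose uptake, was at 39.4, 39.0 and 36.7 RPKM in RA cells, against 29.7, 18.1 and 24.9 RPKM in EV cells (0.68 ± 0.18, limma adjusted p = 0.0362). Ddit4, an inhibitor of mTORC1, was at 24.6, 19.0 and 34.8 RPKM in RA cells, against 38.9, 47.9 and 45.1 RPKM in EV cells (-0.78 ± 0.22, limma adjusted p = 0.0419). Klf9 (-0.47) and Gadd45a (-0.32) fell as well. None of the 4 passed without EV replicate 2 (limma adjusted p between 0.0537 and 0.226). In WT against EV cells at 8 h, Gadd45a (-1.09) and Ddit4 (-0.76) were lower. Klf9 was higher there (0.59, limma adjusted p = 0.000628), and Txnip did not pass (0.28, limma adjusted p = 0.254).

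Extracellular matrix genes gave 1 rise and 2 falls among 39, so 7.69% were called, beside 5.31% of all genes. Adamts1, a protease of proteoglycans, was at 67.6, 74.1 and 69 RPKM in RA cells, against 57.3, 59.0 and 56.2 RPKM in EV cells (0.29 ± 0.06, limma adjusted p = 0.00694). It kept its call without EV replicate 2 (0.30 ± 0.06) and at 8 h (0.28, adjusted p = 0.00987). In the authors' deposited comparison at 4 h it did not reach an adjusted p under 0.05. Col3a1 (-0.44) and Adamts7 fell. Single calls stood in other lists, at shares close to those of all genes: Slc1a5 (-0.40) and Ddit4 in amino acid supply, Per2 (0.48) in the circadian clock, Ddb2 (0.47) among p53 targets, Dhcr7 (-0.43) in cholesterol synthesis, Gusb (-0.44) in the lysosome, Fkbp5 (-0.61) among hormone receptor targets, and Timm22 (0.36) and C1qbp in mitochondria. Gusb, a lysosomal enzyme, was at 20.2, 20.1 and 21.3 RPKM in RA cells, against 26.9, 28.4 and 28.9 RPKM in EV cells, and was the one of these that passed without EV replicate 2 (-0.43 ± 0.10, limma adjusted p = 0.0389).

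Immediate early genes (29), actin with SRF and YAP targets (30) and nuclear transcripts that mark RNA quality (9) gave 0 calls by limma. Among all genes 5.31% were called, and lists of this size would hold few calls at that share. Dusp1, a phosphatase of MAP kinases, was at 0.44 ± 0.14 (adjusted p = 0.0691), Fhl2 at 0.24 ± 0.08 (adjusted p = 0.0848) and Malat1 at -0.04 ± 0.06 (adjusted p = 0.716).

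**Figure D3:**
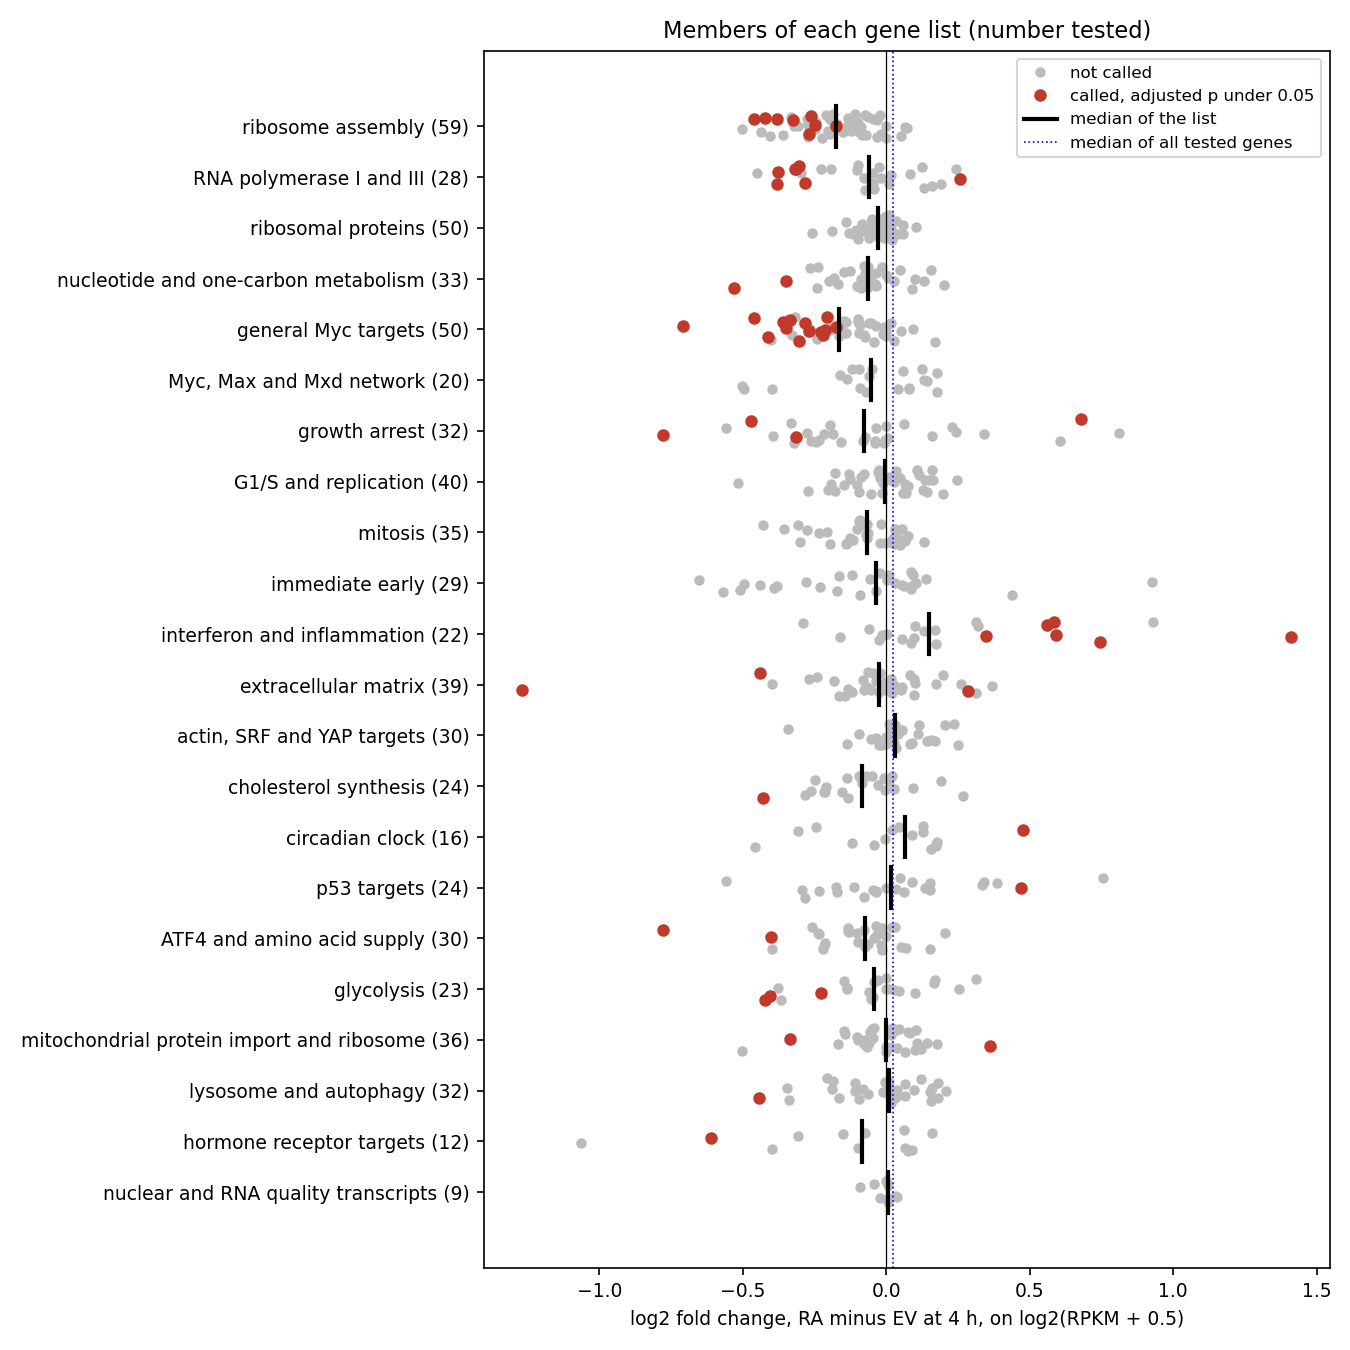
Log2 fold change (RA minus EV at 4 h) of each tested member of 22 gene lists, with called members in red, list medians as black bars and the median of all genes (0.02) as a dotted line. Ribosome assembly (median -0.18) and general Myc targets (-0.16) lie left of zero, and interferon and inflammation (0.15) lies right of it.

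Most of the genes that active WT MycER moves most did not pass in RA cells, and of those that did more fell than rose, whether WT raised or lowered them. The WT comparison used for this is the one at 8 h, which shares no library with RA against EV at 4 h. Of 226 genes at least 2-fold higher in WT than in EV at 8 h, 2 rose (0.885%) and 20 fell (8.85%) in RA cells at 4 h, beside 2.58% higher and 2.73% lower among all genes, with a median of -0.15. Without EV replicate 2, 2 rose and 10 fell, beside 0.53% and 0.758% of all genes, with a median of -0.12. The 95% interval of the RA value lay below a 2-fold rise for 90.7% of the 226 and for 96.4% of all genes. Of 265 genes at least 2-fold lower in WT than in EV at 8 h, 5 rose (1.89%) and 25 fell (9.43%) in RA cells, with a median of -0.06, and the interval lay above a 2-fold fall for 88.7% of them and for 97.5% of all genes. Without EV replicate 2, 2 of them rose and 11 fell, with a median of -0.10.

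P2ry2, a nucleotide receptor, led the WT rises named by the rule at 8 h, with a log2 fold change of 3.09. It was at 0.917, 1.17 and 1.06 RPKM in RA cells, against 1.39, 1.33 and 1.4 RPKM in EV cells, a log2 fold change of -0.28 ± 0.14 (limma adjusted p = 0.281, 95% interval -0.57 to 0.02). Dgat2, an enzyme of triglyceride synthesis (2.51 in WT at 8 h), was at 4.97, 5.54 and 4.87 RPKM in RA cells, against 4.49, 6.34 and 4.27 RPKM in EV cells (0.04 ± 0.13, limma adjusted p = 0.891). Neither gene passed in RA cells.

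Among the WT falls, Ccng2, an atypical cyclin of growth arrest (-2.05 in WT at 8 h), was at 20.2, 22.8 and 20.6 RPKM in RA cells, against 29.0, 20.3 and 28.2 RPKM in EV cells. EV replicate 2 lay among the RA libraries, and the log2 fold change was -0.26 ± 0.16 (limma adjusted p = 0.359) and -0.42 ± 0.16 without it (adjusted p = 0.220). Fam214b (-2.05 in WT at 8 h) was at 0.17 ± 0.20 in RA cells (limma adjusted p = 0.680, 95% interval -0.25 to 0.59). The remaining 6 leading WT genes (Reep6, Slc38a3, Ankrd6, Asb5, Foxs1 and Angptl4) did not pass in RA cells either, with log2 fold changes between -0.38 and 0.22.

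Direct tests between the forms at 4 h gave many calls. Between RA and WT cells, 2437 genes (19.9%) were higher and 1835 (15%) lower in RA, together 34.8% of those tested. That balance turned with the scaling: median centring gave 1892 higher and 2373 lower, and quantile normalisation 1961 higher and 1927 lower. Between RA and HEA cells, 3468 genes (28.3%) were higher and 2206 (18%) lower in RA, together 46.3%, and median centring gave 2881 higher and 2581 lower. In ribosome assembly, 0 members were higher and 53 of 59 were lower in RA than in WT cells, with a median difference of -0.43 (-0.49 with median centring and -0.34 with quantile normalisation). In general Myc targets the count was 0 higher and 42 of 50 lower, with a median of -0.36. Against HEA cells, 24 ribosome assembly genes were higher and 7 lower in RA, with a median of 0.12, beside 0.07 for all genes. With median centring 17 were higher and 7 lower, and the median was 0.06.

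The leading genes of RA differed from WT in part. The RA libraries that chose them also enter these tests, so the values are a description. Among the rises, 14 of 15 were higher in RA than in WT cells, with Esr1 the exception, beside 19.9% of all genes. Against HEA cells, 9 of 15 were higher in RA, beside 28.3% of all genes. Among the falls, 10 of 15 were lower in RA than in WT cells and Adamts7 was higher, beside 15% of all genes lower. Against HEA cells, 7 falls were lower in RA and 2 were higher, beside 18% and 28.3% of all genes. Comparisons of RA, HEA and WT with EV at 4 h share the EV libraries, EV replicate 2 included, so their values are set side by side only. Dyrk3 was at -1.33 ± 0.20 in RA, 0.07 ± 0.20 in HEA and 1.08 ± 0.20 in WT cells, each as a log2 fold change over EV, and at -2.41 ± 0.20 in RA minus WT. Rasgrp3 was at 0.96 ± 0.12 in RA, -0.15 ± 0.12 in HEA and -0.18 ± 0.12 in WT cells over EV. Ccl7 was at 1.41 ± 0.17 in RA, 1.51 ± 0.17 in HEA and 0.86 ± 0.17 in WT cells over EV, and Ctxn1 at -1.53 ± 0.18, -1.14 ± 0.18 and -0.82 ± 0.18 in the same order of forms.

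**Figure D4:**
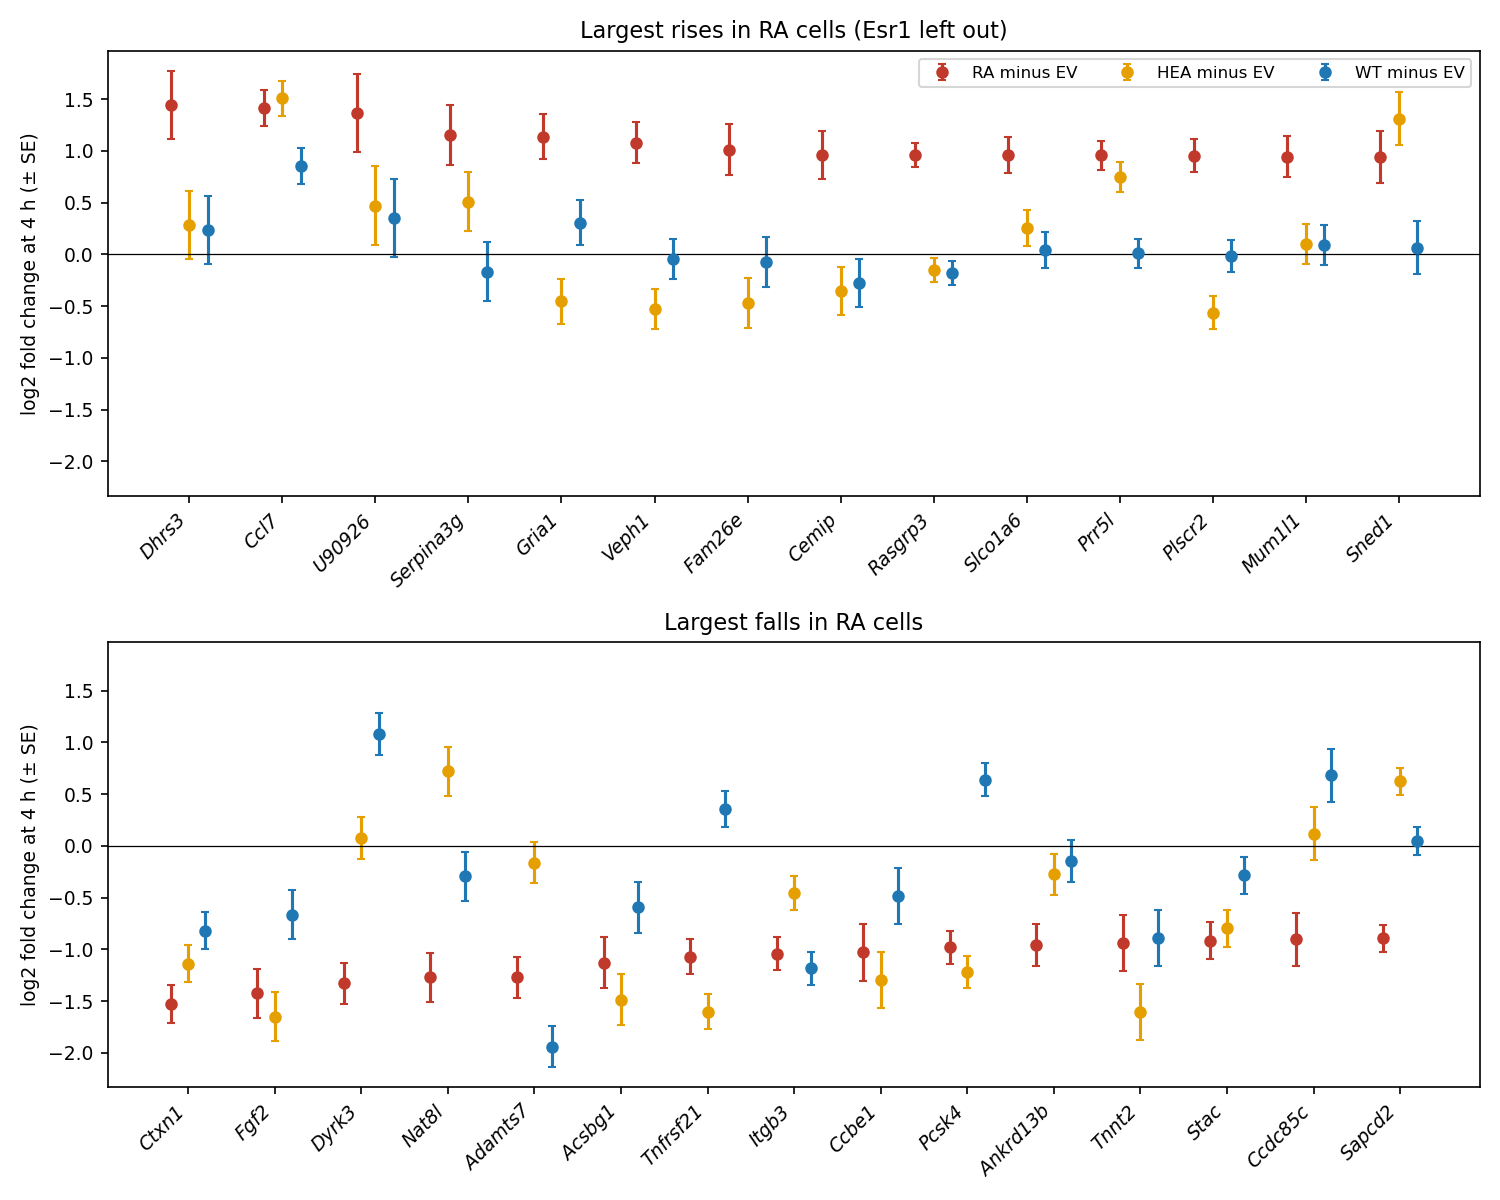
Log2 fold change over EV at 4 h (± SE, 3 libraries a group) of RA, HEA and WT for the leading rises of RA without Esr1 (top) and its leading falls (bottom). The 3 comparisons share the EV libraries. Dyrk3 lies at -1.33 in RA and at 1.08 in WT, while Ctxn1 is below zero in all 3 forms.

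The genes called in RA cells at 4 h were set against the HEA and WT comparisons at 8 h, whose libraries are all different and which called 47.7% and 35.2% of all genes. Of the genes that rose in RA cells, 37.5% were called higher in HEA at 8 h and 16.7% lower, beside 20.2% and 27.5% of all genes. Of the genes that fell in RA cells, 53.7% were called lower in HEA at 8 h and 13.1% higher. In the other direction these overlaps are small shares of the HEA calls, 4.81% of its 2474 higher genes and 5.33% of its 3379 lower genes. Without EV replicate 2, 36 of the 65 higher genes were called higher in HEA at 8 h and 8 lower, and of the 93 lower genes 49 were called lower and 17 higher. With WT at 8 h the shares differed: of the genes that rose in RA cells, 8.83% were called higher in WT and 29.0% lower, and of those that fell, 40.6% were called higher in WT and 27.2% lower, beside 15.2% higher and 20.1% lower among all genes. With that library left out, 11 of the 65 higher genes were called higher in WT and 12 lower, and 36 of the 93 lower genes were called higher in WT and 31 lower.

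Mir17hg, the host transcript of a microRNA cluster that Myc is known to raise, was chosen after its values were seen, as were 2 of the hairpins in it. It was at 21.1, 22.3 and 20.3 RPKM in RA cells, against 35.3, 25.7 and 33.1 RPKM in EV cells. EV replicate 2 was here the EV library nearest to RA, and the log2 fold change was -0.54 ± 0.14 (limma adjusted p = 0.0324), -0.67 ± 0.15 without it (adjusted p = 0.0321) and -0.70 ± 0.14 at 8 h (adjusted p = 0.0112). It was lower in RA than in WT cells, with a difference of -1.09 ± 0.14 (limma adjusted p = 8.18e-06). Mir17 was at 5.58, 8.12 and 15.9 RPKM in RA cells, against 22.1, 25.6 and 19.9 RPKM in EV cells, and Mir18 at 13.0, 14.2 and 15.9 RPKM in RA cells, against 31.6, 32.6 and 30.3 RPKM in EV cells. Both lie within exons of Mir17hg, so their reads and those of the host cannot be told apart, and neither passed without EV replicate 2 (limma adjusted p = 0.126 and 0.111). Mir17 is 84 and Mir18 96 bases long, so at 10.2 to 12.8 M reads a library their RPKM values rest on few reads. The hairpins are shown because the deposited table gives each of these short features a row of its own beside the host. They are from RefSeq (GRCm38.p6, plus strand of chromosome 14), at chr14:115043671-115043754 and chr14:115043851-115043946, and capitals mark the 2 mature arms of each.
Mir17: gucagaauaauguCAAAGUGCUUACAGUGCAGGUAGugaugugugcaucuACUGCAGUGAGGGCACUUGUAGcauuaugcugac
Mir18: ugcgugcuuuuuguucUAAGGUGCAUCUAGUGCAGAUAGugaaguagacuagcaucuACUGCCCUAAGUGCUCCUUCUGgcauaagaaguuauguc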

How the data were processed

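RNA-seq of 24 libraries of 3T9 fibroblasts was analysed, 3 in each of 8 groups. Per the submitters' processing notes, the tools were TopHat and TopHat2 (2.0.8), featureCounts (1.4.5-p1), SAMtools and DESeq2, and the build was mm9; the notes give no roles. The authors deposited RPKM for 21671 genes, per the file headers. The sources do not state the counting settings or the annotation.

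Genes were tested with limma-trend on log2(RPKM + 0.5), where folds of weakly expressed genes come out too small, in R 4.3.3 with limma 3.58.1. A gene entered if 3 or more libraries reached 1 RPKM, 12268 in all. The 24 libraries gave a single fit of 8 group means (16 residual degrees of freedom). The p-values are two-sided and Benjamini-Hochberg adjusted over all tested genes. The scripts were tested on simulated data. Labels do not say that the replicates were separate cultures, and the spread behind the p-values may therefore be technical.

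The authors' deposited table of comparisons gives log2 fold changes, a test statistic (a score), p-values and a mean of normalised counts, per the file headers. In the authors' deposited table, 631 genes had an adjusted p under 0.05 in RA against EV at 4 h (262 higher, 369 lower), of which 412 were also called here in the same direction (63.2% of the calls here, 65.3% of the deposited ones). Of the general Myc targets called here, only Rcc1, Tfap4, Polr1b, Slc19a1 and Rrs1 reached that threshold there. In ribosome assembly only Rrp1b, Rrs1, Nle1 and Ppan did. From the other lists, Ttf1, Polr3e, Cxcl1, Adamts1, Gadd45a, Timm22 and Ddb2 were called here and did not reach it there. Conversely, Mxi1, Mxd3, E2f2, Cenpf and Dusp1 reached it there and were not called here. Reads were recovered from RPKM steps and that mean: 100% of 362673 nonzero values came out whole to within 0.01 read. Totals were 9.82 to 12.8 M per library. A gene at 0 could hold up to 3 reads, 0.235 to 0.306 CPM, a floor that covers counting error only.

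Gene lists, members and the rule for named genes were chosen with earlier results of these data known. The rule takes Esr1, Myc, the 15 largest rises and 15 largest falls (called, mean of at least 1 RPKM, groups apart, predicted and multi-copy genes passed over), called list members or else the 2 of smallest p, the 5 largest rises and falls of WT at 8 h, Ccng2 and P2ry2. One called list member is not reported here. Alternatives were 2 pseudocounts, no filter, median centring, quantile normalisation, no trend, sample weights, the compared groups alone, the replicate number as a block, voom on recovered reads, and leaving out each library. Promoters and hairpins are from RefSeq tables of GRCm38.p6 and were joined by symbol, with no coordinates converted. Python 3.11.15, numpy 2.4.6, pandas 2.3.3 and matplotlib 3.10.9 were used.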

Additional observations from a re-analysis of the deposited data

How the results depend on the processing

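The count of genes called in RA against EV at 4 h (652) was 527 to 790 under other pseudocounts, no filter, median centring, quantile normalisation, no trend, the replicate block and voom on recovered reads. It was 1005 with sample weights and 3 with the compared groups fitted alone, where 2140 genes had an unadjusted p under 0.05. That fit has 4 residual degrees of freedom in place of 16. The same kind of fit at 8 h gave more calls than the main one, 1310 against 341. Leaving out 1 library gave 158 to 557, with 158 without EV replicate 2, 381 without EV replicate 3, 205 without RA replicate 1 and 228 without RA replicate 2. Each of these 4 moved the count by over 1.5 times. The causes of these moves were not tested. The share of calls that were higher was 48.6%, 41.9% after quantile normalisation and 54.2% with voom.

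At 8 h the 341 calls became 3565 with sample weights, 1310 with the groups alone and 526 with voom, and 59 to 189 with 1 library left out. The difference between the times gave 0 calls by limma under every setting run. RA against WT at 4 h gave 2793 calls with the groups alone, against 4272, and the share of its calls that were higher in RA was 57.0%, but 44.4% with median centring and 50.4% with quantile normalisation. RA against HEA at 4 h stayed within 1.5 times of its count under every setting run. Esr1 was between 3.32 (pseudocount 1) and 5.46 (voom) and passed in each setting, and Myc passed in none.

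Settings for the lists were chosen after seeing the data. Ribosome assembly calls (8) were 4 without the filter and 4 without trend, 13 with sample weights, 5 with the replicate block, 0 with the groups alone and 2 to 10 with 1 library left out. General Myc target calls (14) were 8 without the filter, 9 without trend, 9 with the block, 0 with the groups alone and 0 to 15 with 1 library left out. RNA polymerase I and III calls (7) were 0 with the groups alone and 0 to 5 with 1 library left out. Interferon and inflammation calls (6) were 0 with the groups alone and 3 to 6 with 1 library left out.

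Replicate numbers did not pair the RA and EV libraries at 4 h: deviations of same-numbered libraries correlated at -0.21, -0.21 and 0.02. Pairing was not examined at 8 h or with WT and HEA. The block gave 527 calls at 4 h, 268 at 8 h, 4162 for RA against WT and 5547 for RA against HEA. No label states a pairing behind it. Of 98 named genes besides Esr1 and Myc, 15 stayed on the same side of the threshold under every setting. With the groups alone, all 74 that had been called lost their call, so the 15 were genes not called above. In 0 genes did the sign change where either fit called the gene. Sign changes in genes that neither fit called were not counted. The 95% interval reached ±0.25 on the log2 scale in the median gene, so smaller differences were often not detectable. That width comes from the spread between libraries, which exceeded counting noise in the replicate pairs at 4 h (chi-square per degree of freedom of 5.14 to 8.64 in RA and 3.35 to 14.9 in EV).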
